A study of Homo sapiens with 6 samples.

Results

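MALAT1, NEAT1, TUG1, NORAD, KCNQ1OT1 and PVT1 are 6 long noncoding RNAs that were followed in OVCAR3 cells after inhibition of the transcriptional kinases CDK12 and CDK13. They were chosen by name, as well-known long noncoding RNAs of nuclear speckles, paraspeckles and other nuclear or cytosolic roles. The deposited table lists 47577 loci, of which 17568 were tested. MALAT1, TUG1, KCNQ1OT1 and PVT1 were found by their symbol (4 of 6), and each of them was tested. The other 2 had no locus under their symbol, and for these the locus without a symbol at the RefSeq position was read. No strand is given for these loci, so their match rests on position alone. The locus at NEAT1 covers 100% of the RefSeq gene. The locus at NORAD covers 41.3% of it, from its 5′ end, and its value is therefore that of a fragment.

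OVCAR3 is an established cell line of high-grade serous ovarian adenocarcinoma, and all samples come from this line. DMSO, the solvent, was given to 3 cultures, and 200 nM THZ531, a covalent inhibitor of CDK12 and CDK13, to 3 others, each for 6 h. PolyA RNA was sequenced from each, and the series describes the 3 samples of a group as biological repeats. The sample titles name THZ531, whereas THZ1, a related compound, stands at this dose in the field on treatment.

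Long noncoding RNAs are transcribed by RNA polymerase II, often spliced and polyadenylated like messenger RNAs, but act as RNA. MALAT1 accumulates in nuclear speckles, the storage compartments of splicing factors, while NEAT1 is the architectural RNA around which paraspeckles assemble. CDK12 and CDK13 phosphorylate the C-terminal domain of RNA polymerase II and sustain elongation and 3′ end formation, so that RNAs with very different gene structures can be compared under their inhibition.

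Between 53054048 and 70986130 reads were counted per library. Values below are normalized reads, the authors' read count of a locus divided by the size factor of the library. They are not corrected for length. Of the markers of serous ovarian carcinoma, 10 of 10 had enough reads to be tested. So had 2 of 3 leukocyte, 2 of 4 fibroblast and 3 of 3 endothelial markers, so this criterion does not separate cell types. The carcinoma markers summed to 508250 to 522458 normalized reads under DMSO and 637615 to 653066 under THZ531. Most of this came from the keratin genes KRT7, KRT8, KRT18 and KRT19. PAX8, a lineage transcription factor among the carcinoma markers, fell by 3.18 on the log2 scale. Of markers of other cells, the 3 leukocyte genes summed to between 135 and 172 normalized reads over all libraries, with CD3E at 0, and the 3 endothelial genes to between 162 and 299. The 4 fibroblast genes summed to between 995 and 1086 in DMSO and between 2140 and 2412 in THZ531, nearly all of it COL1A1, while DCN was at 0 in each THZ531 library. The part of other cell types in the results below was not tested.

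Regulated loci were those that changed 1.5-fold or more with a limma p, before adjustment, not above 0.05, which are the thresholds of the study. Of all tested loci 39.5% were regulated, 15.7% upward and 23.9% downward. Among the 4 RNAs found by symbol, 2 were regulated, KCNQ1OT1 upward and TUG1 downward, while MALAT1 and PVT1 were not. Neither locus read by position was regulated, although the locus at NEAT1 differed at an adjusted p of 1.0e-05 with limma, as TUG1 and KCNQ1OT1 did (adjusted p at or under 0.05 was found for 68.6% of tested loci). The values of the 3 DMSO and 3 THZ531 libraries did not overlap for these 3, against 71.7% of tested loci (36% with THZ531 higher and 35.7% with THZ531 lower). In such bulk RNA, fewer cells that contain a transcript and less transcript per cell cannot be told apart.

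**Figure D1:**
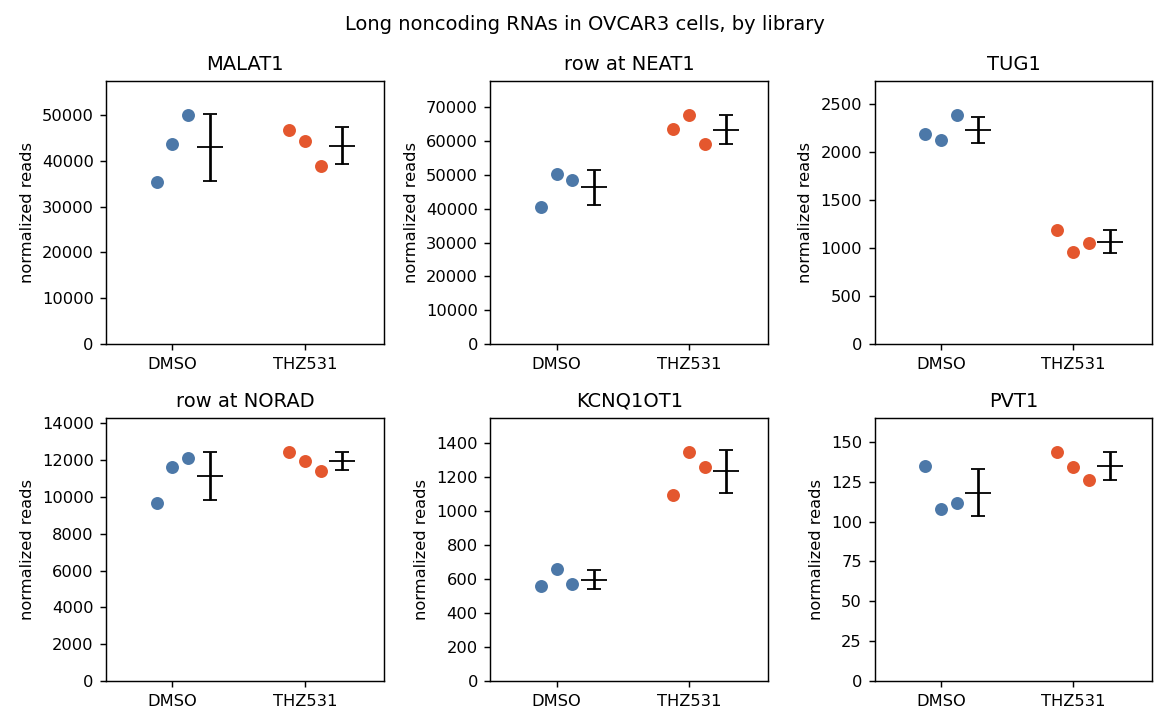
Normalized reads (y axis, from 0) of each long noncoding RNA in the 3 DMSO libraries (blue) and the 3 THZ531 libraries (orange), with the mean and SD (n = 3) beside the points. The groups do not overlap for TUG1, KCNQ1OT1 and the locus at NEAT1, and they overlap for MALAT1, PVT1 and the locus at NORAD.

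TUG1, which is reported in both nucleus and cytoplasm, was the RNA of this set that fell. Its locus lies at chr22:30969211-30979395 (hg38), and its canonical transcript in GENCODE v44 has 3 exons. GENCODE v44 lists the gene as protein coding, since an open reading frame has been annotated in it. TUG1 was at 2183, 2123 and 2382 normalized reads in DMSO replicates 1, 2 and 3, and at 1193, 959 and 1050.1 in THZ531 replicates 1, 2 and 3. Every THZ531 library was therefore below every DMSO library. The mean went from 2229 ± 135 to 1067 ± 118 (SD, n = 3), a 2.09-fold decrease (log2 fold change -1.07, SE 0.075, 95% confidence interval -1.23 to -0.91, adjusted p = 3.6e-09 with limma).

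TUG1 starts next to MORC2, an ATPase gene of chromatin silencing that is transcribed in the opposite direction. The loci of the pair are separated by 436 bases. MORC2 fell from 5993 ± 100.4 to 1300.3 ± 171 normalized reads (SD, n = 3), with a log2 fold change of -2.21 (SE 0.071, adjusted p = 6.0e-13 with limma). The DMSO libraries were at 5979, 6099 and 5899.6 and the THZ531 libraries at 1267, 1148 and 1486, again without overlap. The ratio of TUG1 to MORC2 went from 0.372 ± 0.0285 to 0.828 ± 0.118 (SD, n = 3), so the fall of TUG1 was the smaller of the 2. The ratio was 0.365, 0.348 and 0.404 in DMSO and 0.941, 0.836 and 0.707 in THZ531. An exact permutation test of its log2 gave p = 0.1 (two-sided), the smallest that 3 against 3 libraries can give, and 0.12 after Benjamini-Hochberg adjustment over the 6 ratios computed, all chosen after their values were seen. On the other side, at 84722 bases, SMTN, a smooth muscle cytoskeleton gene, had a log2 fold change of 0.15 (adjusted p = 0.090 with limma).

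The 300 bases that hold the start of TUG1 are shown because they include part of the stretch between the regulated pair. They do not reach the MORC2 locus, which ends at chr22:30968774. They run from 250 bases before to 50 bases after the RefSeq start, on the plus strand at chr22:30969015-30969314 (RefSeq, hg38), with the CCAAT box in capitals wherever it occurs on either strand (CCAAT or ATTGG).
TUG1 promoter: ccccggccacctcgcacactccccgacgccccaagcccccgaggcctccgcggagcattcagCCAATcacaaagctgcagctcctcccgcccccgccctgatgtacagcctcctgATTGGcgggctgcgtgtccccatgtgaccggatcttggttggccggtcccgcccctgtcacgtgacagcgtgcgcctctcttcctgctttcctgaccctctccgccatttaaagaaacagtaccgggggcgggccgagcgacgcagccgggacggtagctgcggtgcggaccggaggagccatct
The window holds CCAAT 2 times, whereas 34.6% of the 35116 promoters of the same length hold it at least once and 10.8% at least 2 times. The GC box GGGCGG was found 4 times (in 45.0% of promoters at least once), the E box CACGTG 1 time (7.26%) and the TATA element TATAAA 0 times (11.5%), both strands searched. None of the CCAAT matches overlapped another of these motifs. The window was 67.7% GC, against a median of 58.7% over the promoters. The corresponding window of MORC2 holds CCAAT 1 time and GGGCGG 2 times. These matches describe the letters only.

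KCNQ1OT1 was the RNA of this set that rose past the thresholds. It is the long antisense transcript of the imprinted KCNQ1 domain, transcribed from one parental allele and known for silencing neighbouring genes in cis. The locus spans 91671 bases at chr11:2608328-2699998 (hg38), on the minus strand. KCNQ1OT1 was at 557, 659 and 571 normalized reads in the 3 DMSO libraries and at 1097, 1348 and 1259 in the 3 THZ531 libraries. The lowest THZ531 library was well above the highest DMSO library. The mean went from 596 ± 55.0 to 1235 ± 127 (SD, n = 3), a 2.07-fold increase (log2 fold change 1.05, SE 0.089, 95% confidence interval 0.86 to 1.24, adjusted p = 3.2e-08 with limma). When the libraries were scaled to RPL34, the increase was 0.56 on the log2 scale, below the fold threshold.

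The gene in which KCNQ1OT1 lies, KCNQ1, a potassium channel gene on the other strand, was listed at between 0 and 3.41 normalized reads and was not tested. Of the genes of the KCNQ1 imprinted domain and its surroundings, 13 were tested, of which 4 rose and 1 fell (38.5% regulated, against 39.5% of all tested loci), with a median log2 fold change of 0.06 against -0.007 over all tested loci. CDKN1C, a cyclin-dependent kinase inhibitor gene and the nearest tested gene with a symbol at higher coordinates, 183219 bases away, rose most of the list. It was at 207, 204 and 148 normalized reads in DMSO and at 753, 765 and 745 in THZ531, a log2 fold change of 2.03 (SE 0.13, adjusted p = 8.4e-10 with limma). PHLDA2, a growth-restricting imprinted gene, rose from 4948 ± 429 to 10741.8 ± 349 (log2 fold change 1.12), and CD81, a tetraspanin gene, from 4194 ± 314 to 6873 ± 96.8 (0.72). With the libraries at the same total, 2 genes of the list rose and 1 fell, and with scaling to RPL34, 2 rose and 3 fell. CD81 was below the fold threshold in both. Of all 17568 tested loci, 1647 rose and 5615 fell with the same total, and 1078 rose and 7524 fell with RPL34. H19 was called at 28.9 ± 12.9 against 53.98 ± 21.1, with groups that overlapped. Between 4 and 6 genes of the list were called when single libraries were left out. OSBPL5, an oxysterol-binding protein gene, went down from 106 ± 16.4 to 27.9 ± 3.54 normalized reads (-1.88 on the log2 scale, adjusted p = 9.0e-06 with limma). TSSC4, the nearest tested gene on the other side, had a log2 fold change of 0.02. KCNQ1OT1 and CDKN1C were thus both higher in every THZ531 library, and the ratio of KCNQ1OT1 to CDKN1C went from 3.26 ± 0.58 to 1.64 ± 0.16 (SD, n = 3, exact permutation p = 0.1, adjusted 0.12).

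Chromatin proteins that repressive long noncoding RNAs have been linked with, mainly of the Polycomb complexes, formed a further list. Of 14 tested genes 6 rose and 2 fell (57.1% regulated, against 39.5% of all tested loci), with a median log2 fold change of 0.50. EED, a core subunit of Polycomb complex PRC2, rose from 947 ± 98.9 to 1918 ± 124 (1.02, adjusted p = 7.1e-09 with limma), and its catalytic subunit EZH2 from 3351 ± 85.6 to 5957 ± 85.9 (0.83). The PRC2-associated JARID2 (0.89), the ubiquitin ligase RNF2 (0.61) and the histone-binding RBBP7 (0.62) were among the other risers. RING1, a ubiquitin ligase of PRC1, fell from 1268 ± 85.9 to 582 ± 38.8 (-1.12), and EZH1, the paralogue of EZH2, from 452 ± 14.5 to 238 ± 19.5 (-0.92). Under scaling to RPL34, 0 of the 14 rose and 2 fell, against 1078 and 7524 of all 17568 tested loci.

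NEAT1 has a short, polyadenylated form and a long form that builds the paraspeckle and is cleaved at its 3′ end by RNase P instead. The locus read for it, chr11:65422798-65445599 (hg38), starts at the RefSeq start of NEAT1 and ends beyond its long form. The short form ends 3716 bases after the start, so that 83.7% of the locus lies past it. The end of the short form is shown with its polyadenylation signal AATAAA in capitals, on the plus strand at chr11:65426474-65426533 (hg38 genome). The annotated end of the short form lies 5 bases after the signal.
NEAT1 short form end: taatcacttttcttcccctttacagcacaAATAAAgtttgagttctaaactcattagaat
Of the 9 NEAT1 transcripts in GENCODE v44, 8 end within the short form. One value per library was deposited for the whole locus, hence the forms could not be separated.

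The locus at NEAT1 was at 40436.5, 50115 and 48544.5 normalized reads in DMSO and at 63531, 67537 and 59022 in THZ531. Each THZ531 library was above each DMSO library. The mean was 46365 ± 5194 in DMSO and 63363 ± 4260.2 in THZ531 (SD, n = 3), 1.37-fold higher (log2 fold change 0.45, SE 0.064, 95% confidence interval 0.32 to 0.59, adjusted p = 1.0e-05 with limma). This is below the threshold of 1.5, so the locus was not called regulated. With scaling to RPL34 the difference was -0.04 (adjusted p = 0.77 with limma). The neighbours were not regulated, with log2 fold changes of -0.41 for FRMD8, a gene 9272 bases upstream, and -0.30 for LOC101927789, 9686 bases downstream. FRMD8 passed the thresholds when scaled to the same total (-0.65) or to RPL34 (-0.90). LOC101927789 passed them when scaled to RPL34 (-0.79). LOC101927789 was at -0.13 without THZ531 replicate 3, -0.16 without DMSO replicate 2 and -0.46 without DMSO replicate 3.

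MALAT1 lies in the same region, at chr11:65497738-65506516 (hg38), in a locus joined with MASCRNA. Its 3′ end is not polyadenylated. RNase P cuts before a tRNA-like stretch that becomes the cytoplasmic mascRNA, and a genome-encoded A-rich tract at the new end folds into a triple helix that protects it. This end is printed because it is the part of MALAT1 that replaces a poly(A) tail. The sequence is that of the plus strand at chr11:65506017-65506174 (hg38 genome), with the run of 13 A in capitals and followed, after 6 bases, by the 58 bases of MASCRNA.
MALAT1 3′ end: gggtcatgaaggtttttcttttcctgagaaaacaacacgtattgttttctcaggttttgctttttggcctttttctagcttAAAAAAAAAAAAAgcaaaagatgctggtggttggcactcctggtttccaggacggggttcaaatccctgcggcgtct
It was the only run of at least 10 A in the locus. The libraries were selected for polyA RNA, and how this selection captured MALAT1 or the long form of NEAT1 was not tested.

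MALAT1 was at 35296, 43643 and 49889.8 normalized reads in DMSO and at 46704, 44219 and 38956 in THZ531. The DMSO libraries enclosed all 3 THZ531 libraries. The mean was 42943 ± 7322 in DMSO and 43293 ± 3956 in THZ531 (SD, n = 3), with a log2 fold change of 0.02 (SE 0.089, 95% confidence interval -0.17 to 0.21, adjusted p = 0.84 with limma). Its coefficient of variation in DMSO was 17.1%, against 11.2% for the locus at NEAT1, 11.6% for the locus at NORAD and a median of 4.03% over the 6929 tested loci with a DMSO mean of at least 1000. All 3 were lowest in DMSO replicate 1. Without that library the log2 fold change was -0.11 for MALAT1, 0.36 for the locus at NEAT1 and 0.01 for the locus at NORAD, and none was called. The ratio of NEAT1 to MALAT1 within a library was 1.146, 1.148 and 0.973 in DMSO and 1.36, 1.53 and 1.52 in THZ531, without overlap (exact permutation p = 0.1, two-sided, adjusted 0.12).

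TALAM1, the antisense transcript of the MALAT1 locus, was counted over 8121 bases that overlap MALAT1. It was at 269.9, 296 and 381 normalized reads in DMSO and at 456, 425 and 300.3 in THZ531, with groups that overlapped (log2 fold change 0.31, SE 0.16, adjusted p = 0.093 with limma). The log2 fold change ranged from 0.19 without THZ531 replicate 1 and 0.21 without DMSO replicate 1 to 0.49 without THZ531 replicate 3 (adjusted p = 0.0095 with limma) and 0.45 without DMSO replicate 3 (adjusted p = 0.019 with limma), never reaching the fold threshold. The TALAM1 value was between 0.678% and 0.976% of the MALAT1 value of the same library. Whether strand was used in counting is not given in the sources used here, so reads of the pair may not be separated.

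**Figure D2:**
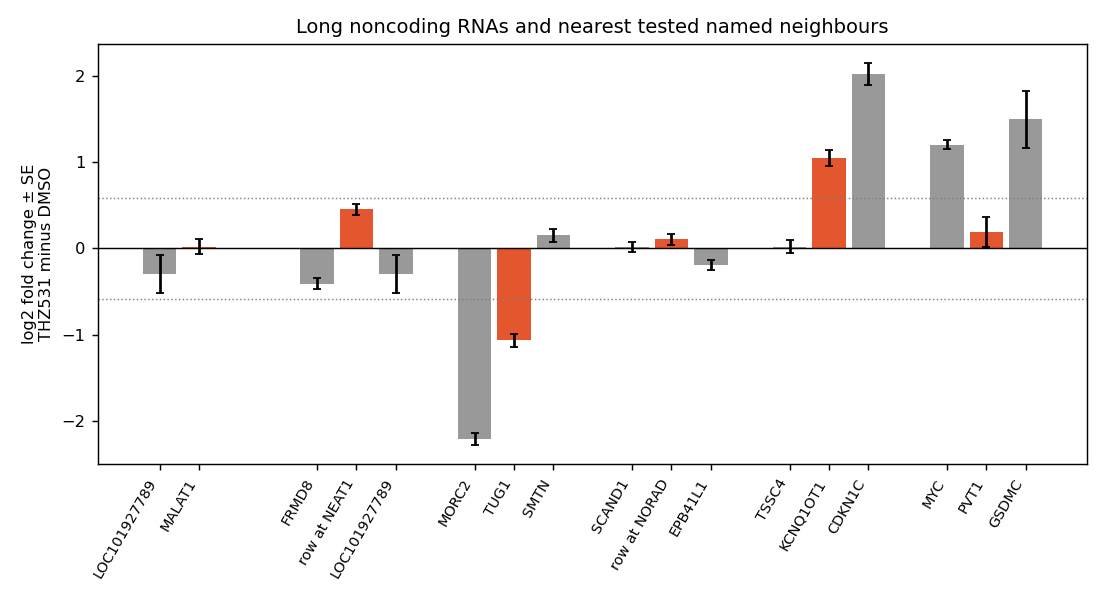
Log2 fold change of THZ531 over DMSO (y axis, limma, bars from 0 with the SE) of each long noncoding RNA (orange) and of nearest tested loci with a symbol (grey), in order of coordinates, with dotted lines at a fold change of 1.5. MORC2 at -2.21 lies beside TUG1 at -1.07, CDKN1C at 2.03 beside KCNQ1OT1 at 1.05, and MYC at 1.20 beside PVT1 at 0.19.

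Proteins that act with NEAT1 and MALAT1 formed 3 lists, to be read beside the 39.5% of all tested loci that were regulated. Of 26 tested genes for paraspeckle proteins 3 rose and 0 fell (11.5% regulated), with a median log2 fold change of 0.28. RBM14, a protein required for paraspeckle formation, rose from 10712 ± 166 to 27507 ± 522 (1.36, adjusted p = 3.2e-14 with limma), PSPC1, paraspeckle component 1, from 3037 ± 229 to 7216 ± 121 (1.25), and the joined locus of CPNE1 and RBM12, whose value cannot be assigned to either gene, from 21827 ± 533 to 44127 ± 698 (1.02). Of 27 tested genes for speckle proteins 6 rose and 2 fell (29.6%), with a median of 0.25. RBM25, a splicing regulator, rose from 2757 ± 78.4 to 4473 ± 153 (0.70), and the speckle scaffold gene SRRM2 from 2199 ± 41.0 to 3442 ± 111 (0.65). SRSF1, an SR splicing factor that binds MALAT1, fell from 16763 ± 415 to 10897 ± 163 (-0.62). U2AF1, a 3′ splice site factor with a near-identical copy in the genome, was called at 847 ± 294 against 466 ± 293 (-0.99, adjusted p = 0.015 with limma), with groups that overlapped. U2AF1 was not called in 4 of 19 alternatives. These were DESeq2, limma without a variance trend, and leaving out DMSO replicate 2 or THZ531 replicate 1 (log2 fold change -0.53 for the last).

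The list for 3′ end processing of MALAT1 and long NEAT1 held the subunits of RNase P, which makes the cut. It also held ELAC2, TRNT1 and METTL16, which are linked with this end or with the released small RNA. Of its 14 tested genes 0 rose and 2 fell (14.3% regulated), with a median of -0.04. The RNase P subunit locus RPP14, joined with HTD2, fell from 1081 ± 24.7 to 492 ± 73.0 (-1.14, adjusted p = 2.9e-08 with limma), and RPP25L from 533 ± 14.4 to 312 ± 33.2 (-0.78). The scaling moved these lists as a whole. With the libraries at the same total of values, 0 of the 27 speckle genes rose and 2 fell, and 3 of the 26 paraspeckle genes rose and 2 fell. Of the 14 genes of the 3′ end list, 0 rose and 4 fell. With scaling to RPL34, 0 speckle genes rose and 3 fell, and 2 paraspeckle genes rose and 3 fell. In the 3′ end list 0 genes rose and 7 fell. Of all 17568 tested loci, 1647 rose and 5615 fell with the same total, and 1078 rose and 7524 fell with RPL34. Scaled to RPL34, the medians became -0.21 for the paraspeckle list, -0.24 for the speckle list and -0.53 for the 3′ end list, while the median of all loci was -0.50.

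NORAD sequesters the Pumilio proteins through many copies of their recognition element, and is known for guarding genome stability. In RefSeq it lies at chr20:36045618-36050960 on the minus strand, as a single exon of 5343 bases. The locus read here, chr20:36048756-36050960, holds its first 2205 bases. The element TGTANATA, where N is any base, occurs 15 times on the transcribed strand, 7 of them inside this locus and 8 outside it. Of 23788 windows of the same length on chromosome 20, 41.1% hold the element at least once and 25 (0.105%) as often as NORAD. In 3 places a pair of elements starts 9 bases apart. These pairs are shown, with the elements in capitals, because the elements lie side by side in them (hg38 genome, minus strand, at chr20:36049497-36049525, chr20:36048300-36048328 and chr20:36047664-36047692, of which the first lies inside the locus).
NORAD pair at base 1442: tatctgTGTATATAgTGTACATAaaggac
NORAD pair at base 2639: ctatacTGTATATAtTGTATATAtaacgg
NORAD pair at base 3275: gtgctgTGTATATAgTGTATATAagcgga

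The locus at NORAD was at 9662, 11628.5 and 12094 normalized reads in DMSO and at 12441, 11973 and 11430.3 in THZ531. The groups overlapped, DMSO replicate 1 being lowest. The mean was 11128 ± 1291 in DMSO and 11948 ± 506 in THZ531 (SD, n = 3), with a log2 fold change of 0.11 (SE 0.063, 95% confidence interval -0.03 to 0.24, adjusted p = 0.14 with limma). NFS1, a cysteine desulfurase gene whose locus as listed spans this position, was not regulated (-0.54), but passed the thresholds without THZ531 replicate 3 (-0.59), with the same total (-0.79) and with RPL34 (-1.04). The nearest tested loci on either side, SCAND1 (0.01) and EPB41L1 (-0.19), were not regulated either, although EPB41L1 passed with RPL34 (-0.69). Of 8 tested genes for Pumilio and other NORAD-binding proteins 2 rose and 0 fell (25% regulated, against 39.5% of all tested loci), with a median of 0.46. CDC5L, a splicing factor gene, rose from 5191 ± 126 to 8837 ± 178 (0.77, adjusted p = 6.9e-11 with limma). It did not pass when libraries were scaled to the same total of values or to RPL34.

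PVT1, on chromosome 8 downstream of MYC, is a host of several microRNAs and is often amplified together with MYC in cancer. It was at 135, 108 and 112 normalized reads in DMSO and at 144, 134 and 126 in THZ531. The groups overlapped, since DMSO replicate 1 exceeded 2 of the THZ531 libraries. The mean was 118 ± 14.7 in DMSO and 135 ± 8.66 in THZ531 (SD, n = 3), with a log2 fold change of 0.19 (SE 0.18, 95% confidence interval -0.18 to 0.57, adjusted p = 0.34 with limma). MYC, the proto-oncogene 51581 bases away, rose from 2177 ± 184 to 5005 ± 47.8 (1.20, adjusted p = 2.6e-11 with limma). The ratio of PVT1 to MYC went from 0.0547 ± 0.0098 to 0.0269 ± 0.0018 (SD, n = 3, exact permutation p = 0.1, adjusted 0.12). GSDMC, a gasdermin gene 1646942 bases away on the other side, rose as well (1.501).

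Loci without a symbol lie inside PVT1. One of them, of 1566 bases and starting 223193 bases into PVT1, was at 25.4, 22.3 and 24.7 normalized reads in DMSO and at 40.3, 42.1 and 52.3 in THZ531 (log2 fold change 0.86, SE 0.32, adjusted p = 0.025 with limma). It was not called in 3 of 18 alternatives, 1 of them without THZ531 replicate 3. Another, of 5055 bases, was at 13.5, 0 and 0 in DMSO and at 13.9, 13.6 and 17.1 in THZ531. It reached the minimum of 10 in 3 libraries only through the THZ531 libraries, which favours a call of higher in THZ531. It was not called in 4 of 18 alternatives, among them edgeR, DESeq2 and the fit without DMSO replicate 2. The loci of MIR1205, MIR1206 and MIR1207 were listed at between 0 and 3.41 normalized reads and were not tested.

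**Figure D3:**
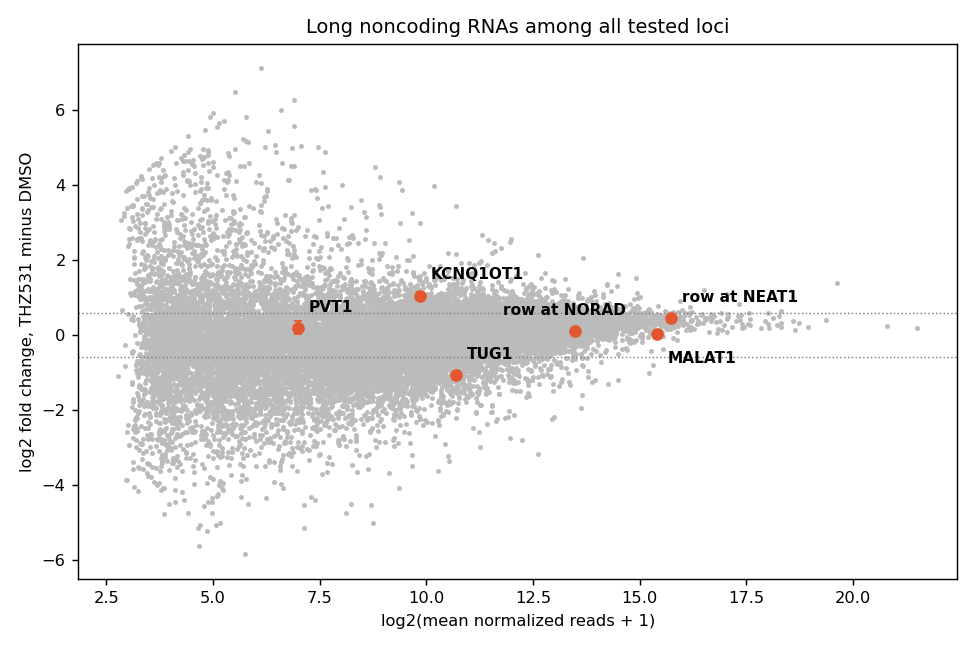
Each of the 17568 tested loci (grey) by its mean level (x axis, log2 of mean normalized reads + 1) and its log2 fold change of THZ531 over DMSO (y axis), with the long noncoding RNAs in orange with their SE and dotted lines at a fold change of 1.5. KCNQ1OT1 lies above the upper line and TUG1 below the lower line, while MALAT1 and the locus at NEAT1 lie at the high end of the levels.

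The word abundant held for part of the set. By normalized reads in DMSO, the locus at NEAT1 ranked 128, MALAT1 138 and the locus at NORAD 871 of the 17568 tested loci, while TUG1 ranked 4337, KCNQ1OT1 8486 and PVT1 12122. In THZ531 the ranks were 106 (NEAT1), 191 (MALAT1), 946 (NORAD), 6490 (TUG1), 6082 (KCNQ1OT1) and 11409 (PVT1), so KCNQ1OT1 and TUG1 exchanged their order by rank. The share of all counted reads was between 0.0591% and 0.0881% for MALAT1 and between 0.073% and 0.103% for the locus at NEAT1. Nuclear location was not measured, as the RNA was that of whole cells.

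Levels between these RNAs were compared per length. This corrects neither for the selection of polyA RNA, whose capture of MALAT1 and long NEAT1 was not tested, nor for the 2 forms of NEAT1. The value at NORAD is that of a 5′ fragment. Per 1000 exonic bases of GENCODE v44, the level in DMSO was 5047 ± 586 normalized reads for the locus at NORAD, 4892 ± 834 for MALAT1 and 2039 ± 228 for the locus at NEAT1 (SD, n = 3). The first 2 did not differ beyond their spread. TUG1 followed at 219.6 ± 13.3, KCNQ1OT1 at 6.50 ± 0.60 and PVT1 at 4.93 ± 0.62, the ranges of the last 2 being separate in DMSO (6.08 to 7.19 and 4.49 to 5.63). In THZ531 the levels were 5419 ± 229, 4931 ± 451, 2786 ± 187, 105 ± 11.6, 13.5 ± 1.39 and 5.62 ± 0.36 in the same order. Exonic bases were those of all annotated transcripts merged, 91671 for KCNQ1OT1 and, from 190 transcripts, 23952 for PVT1. Which of KCNQ1OT1 and PVT1 is higher depends on these lengths, and lengths of single transcripts were not tried. In gene structure, MALAT1, NEAT1 and NORAD have 1 exon in their canonical transcript, TUG1 has 3, KCNQ1OT1 4 and PVT1 11. Those with 1 exon in that transcript were at 2039 or more normalized reads per 1000 bases and were not regulated. Both regulated RNAs have several exons in theirs, but so has PVT1, which was not regulated. This describes 6 RNAs and was not tested. Over all annotated transcripts, exons cover 100% of the KCNQ1OT1 locus, so its exon number depends on the transcript chosen.

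The polyadenylation signal AATAAA was counted in each locus on the strand that GENCODE v44 gives for the RNA. It was found 171 times in KCNQ1OT1 (1.87 per 1000 bases), 10 times in MALAT1 (1.14) and 6 times in TUG1 (0.59). The locus at NEAT1 held it 8 times (0.35), and the locus at NORAD, which lacks the 3′ end of that RNA, 0 times. Of windows as long as KCNQ1OT1 on chromosome 11, 5.54% hold as many, with a median of 104. Of windows as long as the NEAT1 locus, 92.5% hold as many, with a median of 25. On the same measure, windows as long as the locus and on its chromosome, the share was 47.4% for MALAT1 (median 9) and 60.9% for TUG1 (median 7). These counts are a description of the sequences.

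**Figure D4:**
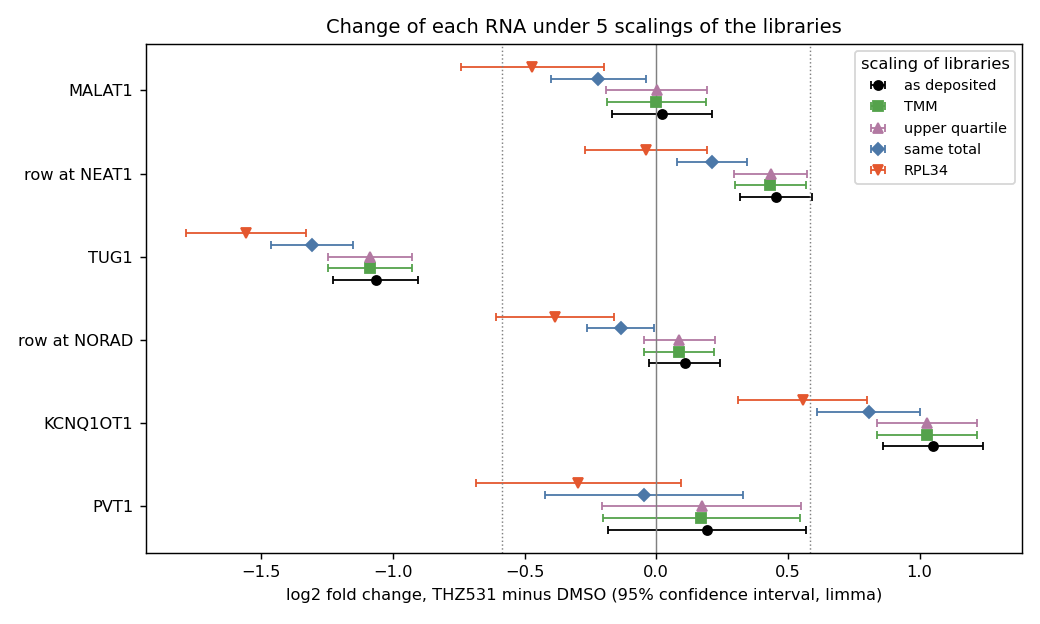
Log2 fold change of THZ531 over DMSO with its 95% confidence interval (x axis, limma) of each long noncoding RNA under 5 scalings of the libraries (symbols), with dotted lines at a fold change of 1.5. TUG1 stays left of -1 under each, KCNQ1OT1 ranges from 0.56 to 1.05, and the signs of MALAT1, PVT1 and the loci at NEAT1 and NORAD change under scaling to RPL34.

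The direction of the smaller differences depended on the scale. RPL34, the ribosomal protein transcript that served as reference in the qPCR assays of the study, was itself higher in THZ531 (log2 fold change 0.49), and scaling to it shifted all loci by -0.49. Scaling to the same total of values shifted them by -0.24, and the upper quartile and TMM by -0.02 each. TUG1 fell by between 1.07 and 1.56 on the log2 scale under these 5 scalings. They differ by the shift and by the spread that the factors add between libraries. The SE of TUG1 was 0.075 as deposited and 0.109 with RPL34. KCNQ1OT1 was higher under all 5, at 0.56 with RPL34. MALAT1 was at -0.47 with RPL34 (adjusted p = 0.0033 with limma), at -0.22 with the same total and at 0.00 with TMM (0.00048). PVT1 was at -0.30 and -0.05 with the first pair of these and the locus at NORAD at -0.38 and -0.13.

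The profiles over the 6 libraries most like each RNA were sought by the Euclidean distance of log2 values centred on their own mean, among loci with a single symbol and a mean of at least 100. They were THAP1 (0.15) and ZBTB18 (0.15) for MALAT1, VMA21 (0.069) and RBM7 (0.080) for NEAT1, and GCNT2 (0.079) and OTUD6B-AS1 (0.12) for TUG1. For the locus at NORAD they were SPOPL (0.056) and WDR19 (0.069), for KCNQ1OT1 RASGEF1B (0.14) and CCSAP (0.19), and for PVT1 RNF115 (0.094) and MRPL35 (0.10). Among the RNAs themselves, MALAT1 and the locus at NORAD were closest (0.20), and TUG1 and KCNQ1OT1 farthest apart (2.64).

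Other well-known long noncoding RNAs moved in both directions. Of 50 tested loci, 10 rose, 11 fell and 29 were not regulated, with a median log2 fold change of 0.03, and 42% were thus regulated against 39.5% of all loci. LINC-PINT, a p53-induced transcript, rose in both of its loci, from 230.0 ± 59.9 to 1312 ± 103 (2.54) and from 64.9 ± 4.78 to 274 ± 36.1 (2.06). LINC01003 rose from 83.6 ± 9.85 to 280.2 ± 17.3 (1.74). MCM3AP-AS1 fell from 916 ± 5.91 to 125 ± 7.34 (-2.86, adjusted p = 2.4e-12 with limma), MIR210HG, the host of a hypoxia-induced microRNA, from 43.8 ± 12.4 to 10.2 ± 1.12 (-1.96), and HCP5, of the HLA region, from 108 ± 27.1 to 31.3 ± 2.61 (-1.73). OIP5-AS1, a cytoplasmic RNA known for binding HuR, fell from 7823 ± 293 to 2504 ± 220 (-1.65) and UCA1 from 11846 ± 474 to 6512 ± 101 (-0.86), both chosen here for their level after their values were seen. Scaled to RPL34, 3 of the 50 rose and 19 fell, against 1078 and 7524 of all 17568 tested loci.

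**Figure D5:**
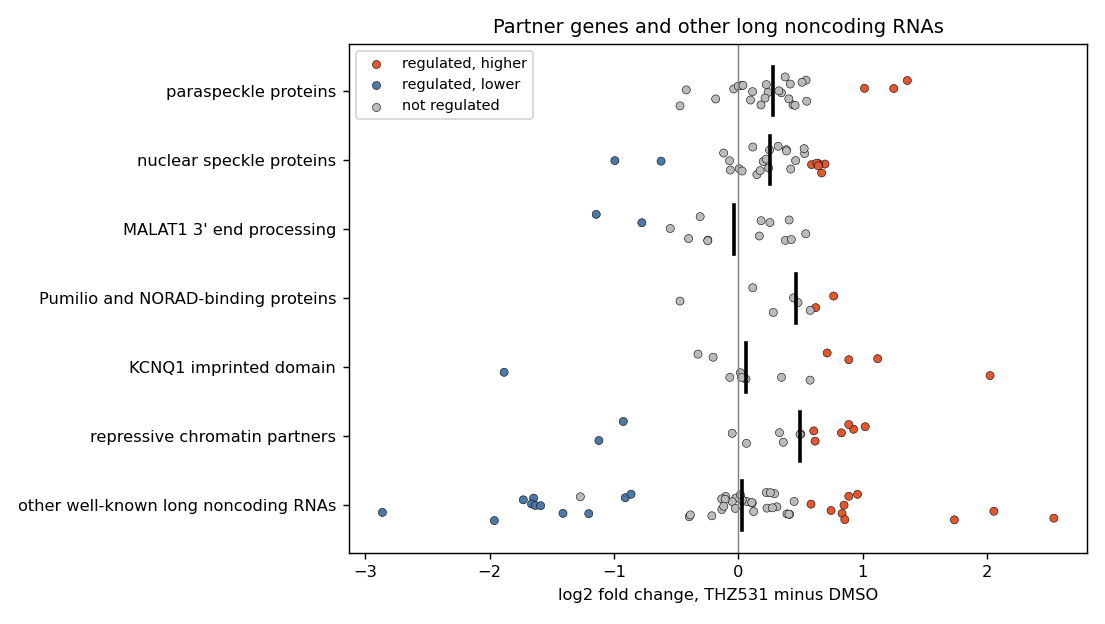
Log2 fold change of THZ531 over DMSO (x axis, limma) of every tested gene of the 7 lists (rows), with regulated genes in orange (higher) or blue (lower), others in grey, and the median of each list as a black bar. Of the 149 different genes tested, 30 rose and 18 fell (32.2% regulated, against 39.5% of all loci), but 15 rose and 25 fell with the same total and 7 rose and 37 fell with RPL34. Of all 17568 tested loci, 1647 rose and 5615 fell with the same total, and 1078 rose and 7524 fell with RPL34. The medians as plotted lie between -0.04 for the MALAT1 3′ end list and 0.50 for the chromatin list.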

How the data were processed

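PolyA RNA-seq of 3 DMSO and 3 THZ531 cultures was used. Per the labels and the methods of the study, the authors mapped reads to hg38 with STAR (2.7.5a in the submitters' processing notes), counted them with featureCounts on FAST DB genes and deposited the normalized signal, the counts divided by a DESeq2 size factor per library. In each library 100% of values were whole multiples of 1 step (tolerance 0.01 reads), which gave the reads back. The depth limits precision for weakly expressed loci.

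The 17568 loci that reached 10 in 3 or more libraries were tested on log2(value + 1) in R 4.3.3 by limma 3.58.1 with a variance trend, with Benjamini-Hochberg adjusted p-values over all tested loci. On this scale the change of low loci is understated. Because the deposited values are normalized, edgeR 4.0.16 and DESeq2 1.42.0 on the recovered reads served as alternatives, beside pseudocounts of 0.1 and 10, no minimum and a minimum of 50, other scalings, the replicate number as a block, a fold change of 2 and leaving out each library. The scripts were tested on simulated data.

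The members and lists were chosen with earlier results of these data known. Named genes are the 6 RNAs, tested loci within 10000 bases, the nearest tested neighbours, from each list the largest rise and the 2 largest falls (3 in each direction for other long noncoding RNAs), the 2 most similar profiles and RPL34. CD81, PHLDA2, H19, EZH2, JARID2, RNF2, RBBP7, PSPC1, CPNE1 with RBM12, SRRM2, OIP5-AS1 and UCA1 fall outside this rule and were named after their values were seen. Some genes within the rule are not reported here. Loci without a symbol were placed by hg38 coordinates against RefSeq. Sequences come from RefSeq promoters, in which 3 of the 6 RNAs were matched, and from the hg38 genome with GENCODE v44.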

Additional observations from a re-analysis of the deposited data

How the results depend on the processing

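Leaving out each library gave 6714 to 6910 regulated loci (6948 with all 6), 2 to 2 of the long noncoding RNAs and 44 to 49 of the listed genes (48). A fold change of 2 left 4042 loci and 21 listed genes. Scaling to RPL34 left 1 RNA, TUG1, past the thresholds, with KCNQ1OT1 at 0.56. TUG1 kept its direction and call under all 19 alternatives (-1.56 to -0.99). Signs turned with RPL34 for MALAT1 (-0.47), NEAT1 (-0.038), NORAD (-0.38), PVT1 (-0.30), TSSC4 (-0.48), SCAND1 (-0.48), SMTN (-0.34) and TALAM1 (-0.18). They turned with the same total for MALAT1 (-0.22), NORAD (-0.13), PVT1 (-0.048), TSSC4 (-0.23), SCAND1 (-0.23) and SMTN (-0.090), and with the upper quartile and TMM for TSSC4 (-0.0039 and -0.0045) and SCAND1 (-0.0099 and -0.010). These follow from the shift that each scaling applies to every locus. The split of regulated loci was 2751 up and 4197 down as deposited, 1647 and 5615 with the same total, and 1078 and 7524 with RPL34.

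Without single libraries the log2 fold change was -0.11 to 0.14 for MALAT1 (-0.03 without THZ531 replicate 1), 0.36 to 0.51 for NEAT1, -1.15 to -0.99 for TUG1, 0.0099 to 0.17 for NORAD, 0.98 to 1.13 for KCNQ1OT1, 0.13 to 0.29 for PVT1, -0.071 to 0.10 for TSSC4 and -0.015 to 0.046 for SCAND1. Same-numbered libraries correlated at 0.0017, 0.019 and -0.039 in their deviations. With 3 libraries per group this cannot settle whether the replicate numbers pair the samples. The fit with a replicate block called 6918 loci, the same 2 RNAs and 48 listed genes. Depth limits PVT1 and the loci inside it. The NORAD value covers the 5′ part of the RNA.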
